A study of Homo sapiens with 60 samples.

Results

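The 9 genes described here encode the methionine cycle and its exits in a human liver cell line: GNMT, MAT1A, MAT2A, MAT2B, AHCY, BHMT, MTR, CBS and CTH. They were chosen by gene symbol with earlier results of the same libraries known, and 9 of the 60675 gene identifiers in the count table carry these symbols. All 9 passed the filter on low counts. GNMT leads the set and may have been selected on its own levels in these libraries. Its values are therefore given as a description, with standard errors and without a test. The other 8 genes were tested together with all other genes.

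In the methionine cycle, methionine adenosyltransferases join methionine and ATP into S-adenosylmethionine (SAM), the methyl donor of most cellular methylation. Methyltransferases use SAM and leave S-adenosylhomocysteine, which is split to homocysteine. Homocysteine is either methylated back to methionine or passed into cysteine synthesis, the transsulfuration pathway. In adult liver the catalytic subunit MAT1A predominates, and liver cancer cells usually gain MAT2A. GNMT methylates glycine and so disposes of surplus SAM in hepatocytes, and it is often low in liver tumours.

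HepG2 is an established line from a human hepatocellular carcinoma. Cells were exposed for 24 h to ethanol extracts at 500, 100 and 20 µg/mL or to vehicle, given in the sample labels as 0.1% DMSO and differently in the text of the series. For the extract libraries no DMSO percentage was taken from the labels. The vehicle group had 3 libraries. Astragali Radix, Cinnamomi Cortex, Rehmanniae Radix Preparata and Cnidii Rhizoma had 3 libraries at each dose. Angelicae Gigantis Radix, Paeoniae Radix and the formula Sagunja-tang had 2 at each dose, and the formula Samul-tang had 1. HepG2 is 1 cell line, and nothing in the labels says that libraries of a group came from separate cultures, so p-values measure only the spread between these libraries. Samul-tang is given as values without a test.

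The 60 libraries held between 21485882 and 34643028 summed expected counts. Of 9 hepatocyte markers, the lowest single-library level was that of TTR at 123 CPM (counts scaled to a common library size), and HNF4A lay between 299 and 405 CPM. The summed level of the 9 was 55911 to 57545 CPM in vehicle and higher in every 20 µg/mL library. At 500 µg/mL it was 40828 to 52839 CPM with Astragali Radix and 50302 to 52307 CPM with Sagunja-tang. With Cnidii Rhizoma it was 51874 to 53918 CPM at that dose. The other 500 µg/mL groups ranged from 55327 CPM (Samul-tang) to 61549 CPM (Paeoniae Radix). The part of this in the GNMT levels below was not tested. Of 10 markers of other cell types, PTPRC was at 0 in all 60 libraries, and CD68 and KRT19 carried most of the summed level. That sum was 100.3 to 107 CPM in vehicle, 181 to 183 CPM with Paeoniae Radix at 500 µg/mL and 283 to 325 CPM with Astragali Radix at 500 µg/mL. The mitochondrially encoded share of counts was 14.23% in vehicle, 20.9% with Paeoniae Radix and 25.79% with Astragali Radix at 500 µg/mL, and 13.96% to 19.82% in the other groups. These 2 extracts at 500 µg/mL also gave most member changes below, and the part of the markers and of the mitochondrial share in those changes was not tested. CPM are shares of a library, so fewer cells and less RNA per cell cannot be told apart.

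The 250 bases before the RefSeq start are shown for GNMT and for the 3 members that passed the test between doses with both Paeoniae Radix and Astragali Radix: MAT1A and MAT2A, which fell, and CTH, which rose. They come from RefSeq on GRCh38.p14, read 5′ to 3′ on the strand of the gene. GNMT lies at chr6:42960504-42960753 on the plus strand, MAT1A at chr10:80289659-80289908 on the minus strand, MAT2A at chr2:85538918-85539167 and CTH at chr1:70411018-70411267, both on the plus strand. Capitals mark matches on either strand to the motifs searched, and no 2 matches overlapped in these 4 windows.
GNMT: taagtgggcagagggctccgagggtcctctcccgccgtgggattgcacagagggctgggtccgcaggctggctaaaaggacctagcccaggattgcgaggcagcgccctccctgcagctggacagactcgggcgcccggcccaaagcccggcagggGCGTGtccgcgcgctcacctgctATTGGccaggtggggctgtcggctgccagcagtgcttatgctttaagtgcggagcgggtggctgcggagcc
MAT1A: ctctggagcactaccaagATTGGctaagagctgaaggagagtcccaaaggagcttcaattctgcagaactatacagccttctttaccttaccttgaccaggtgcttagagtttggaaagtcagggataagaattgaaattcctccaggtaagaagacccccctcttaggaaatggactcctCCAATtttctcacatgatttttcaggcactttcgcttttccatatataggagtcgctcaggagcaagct
MAT2A: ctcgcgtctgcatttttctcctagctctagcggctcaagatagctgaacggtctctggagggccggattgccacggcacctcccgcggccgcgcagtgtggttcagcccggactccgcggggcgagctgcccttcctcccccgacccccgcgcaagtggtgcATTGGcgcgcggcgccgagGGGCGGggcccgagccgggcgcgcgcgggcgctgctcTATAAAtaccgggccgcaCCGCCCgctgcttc
CTH: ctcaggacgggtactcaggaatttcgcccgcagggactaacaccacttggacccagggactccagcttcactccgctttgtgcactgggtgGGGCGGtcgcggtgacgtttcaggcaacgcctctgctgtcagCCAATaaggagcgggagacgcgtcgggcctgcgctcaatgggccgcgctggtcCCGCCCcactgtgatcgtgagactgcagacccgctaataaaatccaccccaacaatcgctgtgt
The 7 motifs were the CCAAT box (CCAAT), the GC box (GGGCGG), the TATA box (TATAAA), the E-box (CACGTG), the dioxin response element core (GCGTG), the antioxidant response element core (TGACNNNGC) and a C/EBP-ATF element (TGATGNAA). All 4 windows held a CCAAT box, as did 32.0% of the 35116 promoter windows of this length. MAT2A also held 2 GC boxes and a TATA box that began 32 bases before the start, and CTH held 2 GC boxes. A GC box was present in 42.6% and a TATA box in 10.7% of all windows. GNMT held 1 dioxin response element core, present in 32.2% of all windows. The E-box, the antioxidant response element core and the C/EBP-ATF element had no match in these 4 windows, against 6.34%, 10.9% and 3.14% of all windows. Base composition differed, with 71.6% G and C in MAT2A, 68.4% in GNMT, 61.6% in CTH and 44.8% in MAT1A, against a median of 58.0%. These matches describe letters only.

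Levels were compared between genes per kilobase of annotated exon. In vehicle, AHCY stood at 85.3 ± 2.43 CPM per kb (SD, n = 3), MAT1A at 67.3 ± 0.882 and MAT2A at 63.2 ± 1.46. The regulatory subunit MAT2B stood at 6.55 ± 0.0558 CPM per kb, CBS at 6.35 ± 1.63, MTR at 5.78 ± 0.211, GNMT at 4.74 ± 0.0937, CTH at 3.43 ± 0.153 and BHMT at 1.49 ± 0.0871. On this scale MAT1A and MAT2A stood at similar density, AHCY was highest and BHMT lowest among these genes. The scale depends on the annotated exon length of each gene, which need not be that of the transcripts present. CBS has 6786 annotated exon bases and CBSL, its near-identical copy described below, has 4004. The order between genes is therefore approximate, and that of genes with close values is not read as an order of transcript number. GNMT and BHMT are low-count members: GNMT had 35 to 170 counts and BHMT 58.1 to 194 counts per library. CTH had 166 to 449, and the other 6 members had at least 585.

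GNMT (ENSG00000124713, chr6:42960758-42963880, plus strand, GENCODE 29 on GRCh38) stood at 5.20, 5.06 and 5.00 CPM in the vehicle libraries. Of 57 treated libraries, 56 lay below the lowest vehicle library. The exception was 1 library of Astragali Radix at 100 µg/mL with 5.81 CPM, beside 4.83 and 4.90 CPM in the other 2 of its group. At 500 µg/mL all 8 extracts had means below that of vehicle.

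The lowest GNMT levels were those of Sagunja-tang at 500 µg/mL, at 1.495 and 1.29 CPM. Its 20 µg/mL libraries stood at 3.35 and 3.00 CPM and its 100 µg/mL libraries at 2.81 and 3.08 CPM. The 500 µg/mL libraries lay apart from both. The log2 change was −1.20 ± 0.23 (standard error) between 500 and 20 µg/mL and −1.87 ± 0.20 between 500 µg/mL and vehicle, a 3.66-fold lower level.

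Cnidii Rhizoma was next, with 1.84, 1.99 and 2.18 CPM at 500 µg/mL against 3.83, 3.92 and 3.82 CPM at 20 µg/mL. Its 100 µg/mL libraries spread from 2.42 to 4.12 CPM and overlapped those at 20 µg/mL. The log2 change was −0.93 ± 0.17 between 500 and 20 µg/mL and −1.33 ± 0.16 against vehicle. Samul-tang, with 1 library a dose, had 3.22, 2.54 and 2.09 CPM at 20, 100 and 500 µg/mL.

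With Astragali Radix GNMT stood at 4.74, 4.04 and 4.07 CPM at 20 µg/mL and at 3.35, 2.75 and 3.16 CPM at 500 µg/mL. These 2 groups did not overlap, and the log2 change was −0.47 ± 0.16. The 100 µg/mL mean of this extract, 5.18 ± 0.547 CPM (SD, n = 3), was the highest of all groups. Cinnamomi Cortex also had no overlap between 500 and 20 µg/mL, with a log2 change of −0.38 ± 0.16. Rehmanniae Radix Preparata had −0.51 ± 0.17, with overlapping libraries. Angelicae Gigantis Radix had −0.21 ± 0.21 and Paeoniae Radix −0.09 ± 0.20, both with overlap between doses. The first turned to 0.02 without replicate 3 at 500 µg/mL, and the second to 0.08 without replicate 3 at 20 µg/mL and to 0.04 without replicate 2 at 500 µg/mL.

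Ordered by mean at 500 µg/mL over the 7 replicated extracts, GNMT ran from 1.39 CPM for Sagunja-tang and 2.00 CPM for Cnidii Rhizoma to 2.56 for Rehmanniae Radix Preparata, 2.67 for Angelicae Gigantis Radix, 2.95 for Cinnamomi Cortex, 3.09 for Astragali Radix and 3.29 for Paeoniae Radix. Vehicle stood at 5.09 CPM. Among these, the libraries of Sagunja-tang and of Cnidii Rhizoma were each apart from the next in order, and so was vehicle. The single Samul-tang library, at 2.09 CPM, lay within the range of Cnidii Rhizoma. The neighbours between Rehmanniae Radix Preparata and Paeoniae Radix overlapped.

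**Figure D1:**
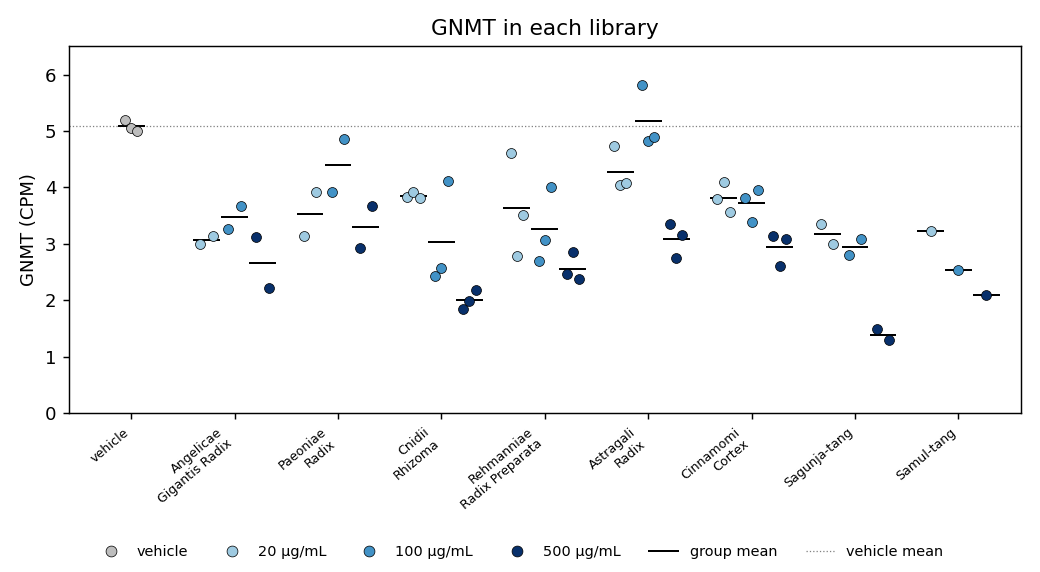
GNMT in CPM (vertical axis) in each library, by extract (horizontal axis) and dose (shade). Short lines are group means and the dotted line is the vehicle mean of 5.09 CPM. The libraries of Sagunja-tang and Cnidii Rhizoma at 500 µg/mL lie between 1.29 and 2.18 CPM, and the single library of Samul-tang at that dose, at 2.09 CPM, lies within the range of Cnidii Rhizoma.

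GNMT stood below vehicle already at the lowest dose, with a log2 change of −0.50 ± 0.11 for the mean of the 7 groups at 20 µg/mL. The titles of all libraries name the same batch, D. Vehicle libraries carry a code prefix of their own in the labels, while every extract shares a prefix with 1 other. Extract and prefix cannot be told apart in any comparison with vehicle. Comparisons between doses of 1 extract stay within 1 prefix. With the 20 µg/mL groups of the other 6 extracts in place of vehicle, the log2 change of GNMT at 500 µg/mL was −1.41 ± 0.18 for Sagunja-tang and −0.82 ± 0.14 for Cnidii Rhizoma. It was −0.18 ± 0.13 for Astragali Radix and −0.12 ± 0.15 for Paeoniae Radix, where it had been −0.72 and −0.61 against vehicle. Most or all of these 20 µg/mL groups carry another prefix than the 500 µg/mL group. Extract and prefix are therefore not separated in this comparison either.

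GNMT shares exon sequence with PEX6 on the opposite strand, a peroxisome assembly gene. PEX6 stood at 7.39, 6.94 and 7.54 CPM in vehicle and at 6.83 and 4.80 CPM with Sagunja-tang at 500 µg/mL. With Astragali Radix at 500 µg/mL it rose to 13.5, 14.8 and 11.0 CPM, by 0.93 ± 0.10 on the log2 scale against 20 µg/mL (adjusted p = 6.3e-11), while GNMT was lower there. The library kit is directional, but whether counting used the strand is not given in the sources used here.

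The 5 genes whose pattern was most like that of GNMT over 22 group means, among 10453 genes with a mean of at least 5 CPM, were MMP11 (Pearson r 0.923 of log2 CPM), MMAB (0.886), KAZALD1 (0.881), MVB12B (0.881) and ALDH3B1 (0.880). MMP11 is a matrix metalloproteinase and MMAB makes adenosylcobalamin, a form of vitamin B12. These groups share the vehicle prefix difference and the GNMT counts are low, so the values are a description. Over the same 22 means the r of GNMT with the other 8 members lay between −0.363 (CBS) and 0.353 (BHMT).

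Between 500 and 20 µg/mL, the 8 tested members gave 12 calls over the 7 replicated extracts, 6 higher and 6 lower. A call is an adjusted p below 0.05 in edgeR's quasi-likelihood test over 16692 genes. Astragali Radix gave 6 of the 12: MAT2A, MAT1A, MTR and BHMT fell, and CTH and AHCY rose. Paeoniae Radix gave 3, with MAT2A and MAT1A lower and CTH higher. Sagunja-tang gave 2, MAT1A and AHCY, both higher, and Cnidii Rhizoma gave 1, MAT1A, higher.

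These counts stand against a background that differed widely between extracts. The share of all genes called was 69.5% for Astragali Radix, 30.6% for Paeoniae Radix, 18.4% for Cnidii Rhizoma and 10.4% for Sagunja-tang. It was 1.41% for Rehmanniae Radix Preparata, 1.05% for Angelicae Gigantis Radix and 0.809% for Cinnamomi Cortex, and no tested member was called in these 3. At an unadjusted p below 0.05, Rehmanniae Radix Preparata had 2 members and the other 2 extracts had 1 each. DESeq2 called MAT1A in Angelicae Gigantis Radix and no member in the other 2. It gave no adjusted p for 2 members in Cinnamomi Cortex and 1 in Angelicae Gigantis Radix. For Astragali Radix, 6 of 8 members called is near its background. The median log2 change over all 9 genes, GNMT included, was −0.175 there, against −0.022 for all genes. For Paeoniae Radix it was −0.088, the value of GNMT itself, against 0.003. Without GNMT, the Astragali Radix median lay between the MAT1A change of −0.17 and the MAT2B change of 0.07. As GNMT may have been selected on its levels, nothing is read from these medians.

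**Figure D2:**
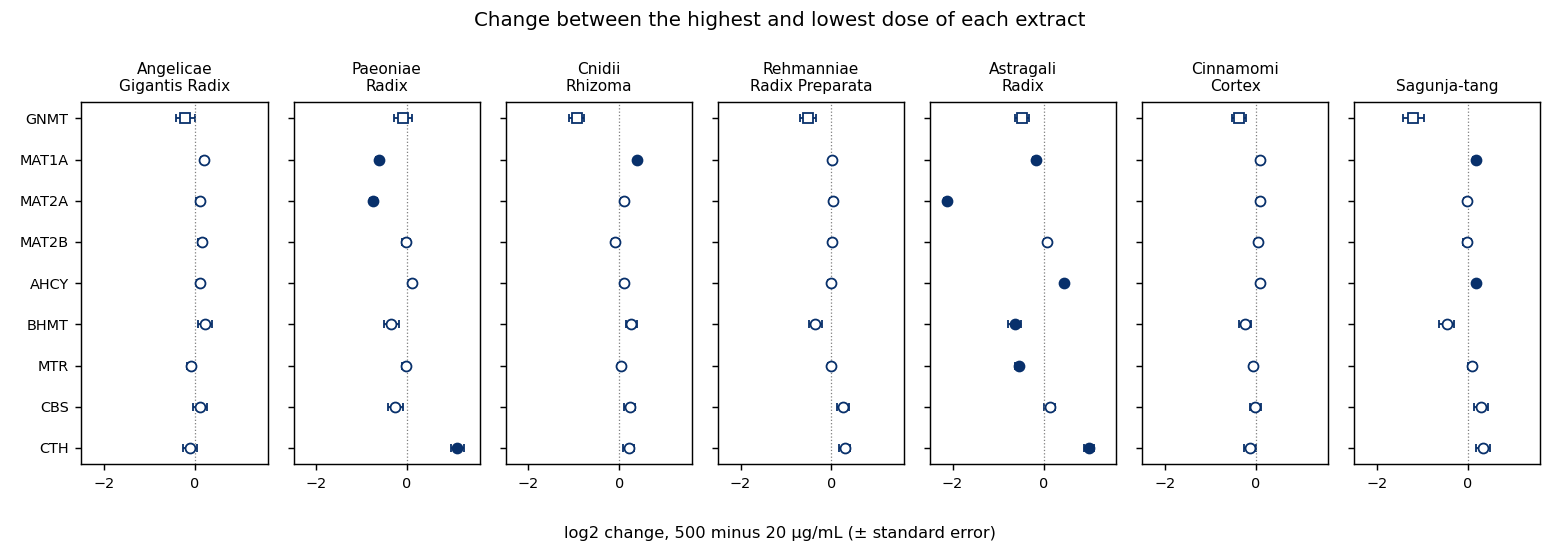
Log2 change between 500 and 20 µg/mL (horizontal axis, ± standard error) of the 9 members (rows) in the 7 replicated extracts (panels). Filled circles passed the test, open circles did not, and squares mark GNMT, which was not tested. MAT2A with Astragali Radix lies furthest from 0, at −2.12.

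MAT2A (ENSG00000168906, chr2:85539165-85545280, plus strand) encodes the catalytic adenosyltransferase subunit of growing and non-hepatic cells. Vehicle libraries stood at 281, 279 and 291 CPM. In the Astragali Radix groups it stood at 246, 248 and 254 CPM at 20 µg/mL, at 82.8, 103 and 98.4 CPM at 100 µg/mL and at 48.9, 61.8 and 61.4 CPM at 500 µg/mL. The 3 dose groups did not overlap, and each higher dose stood lower. The fall was −2.12 ± 0.06 on the log2 scale between 500 and 20 µg/mL, 4.34-fold (adjusted p = 1.0e-29), and −1.39 ± 0.06 between 100 and 20 µg/mL, 2.63-fold (adjusted p = 1.5e-21). Per kilobase, MAT2A went from 63.2 CPM in vehicle to 12.8 ± 1.64 CPM (SD, n = 3), while MAT1A stood at 55.3 ± 4.89 CPM in the same libraries.

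With Paeoniae Radix MAT2A stood at 248 and 257 CPM at 20 µg/mL, 253 and 245 CPM at 100 µg/mL and 148 and 153 CPM at 500 µg/mL. Only the highest dose stood apart. The fall was −0.75 ± 0.07 on the log2 scale (adjusted p = 4.8e-11). In the 52 libraries outside these 3 lowered groups, MAT2A stayed between 245 and 316 CPM. It shares exon sequence with GGCX on the opposite strand, a carboxylase of vitamin K-dependent proteins, which rose by 0.26 ± 0.05 (log2) with Astragali Radix at 500 µg/mL.

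MAT1A (ENSG00000151224, chr10:80271820-80289684, minus strand) encodes the catalytic subunit of mature hepatocytes. Vehicle libraries stood at 251, 250.1 and 245 CPM. With Paeoniae Radix it fell at 500 µg/mL, to 147 and 142 CPM from 219 and 226 CPM at 20 µg/mL, by −0.63 ± 0.06 on the log2 scale (adjusted p = 1.6e-11). With Cnidii Rhizoma it rose, to 292, 297 and 296 CPM from 212, 235 and 226 CPM, by 0.40 ± 0.05 (adjusted p = 1.6e-08). The Paeoniae Radix libraries were below all others, and those of Cnidii Rhizoma were above all others.

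MAT1A changes in the other extracts were smaller. With Astragali Radix it was higher at 100 µg/mL (264, 258 and 247 CPM) than at 20 µg/mL (238, 224 and 228 CPM), by 0.15 ± 0.05 (adjusted p = 0.011). That call was lost without the 100 µg/mL library at 264 CPM or without either of the 20 µg/mL libraries at 224 and 228 CPM. It was also lost with no low-count filter, and the adjusted p was up to 0.087. MAT1A was lower at 500 µg/mL (212, 216 and 183 CPM), by −0.17 ± 0.05 (adjusted p = 0.0013), so the direction turned between the 2 doses. Without the 500 µg/mL library at 183 CPM the second change was −0.10, with an adjusted p of 0.053. Sagunja-tang rose from 221 and 222 CPM to 252 and 251 CPM, by 0.18 ± 0.06 (adjusted p = 0.036). This call was lost without any 1 of these 4 libraries, with RLE size factors or with no low-count filter, with adjusted p up to 0.24.

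MAT2B (ENSG00000038274, chr5:163503114-163519336, plus strand) encodes the regulatory subunit that binds the MAT2A enzyme. It did not pass the test between doses in any extract. Its 60 libraries lay between 25.3 and 37.7 CPM, and its furthest change from 0 between 500 and 20 µg/mL in these 7 extracts was 0.15 ± 0.08 (log2), with Angelicae Gigantis Radix. With Astragali Radix it changed by 0.07 ± 0.07, while MAT2A fell 4.34-fold.

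AHCY (ENSG00000101444, chr20:34280268-34311802, minus strand) encodes the hydrolase that splits S-adenosylhomocysteine. Vehicle libraries stood at 336, 339 and 321 CPM. After Astragali Radix it stood at 346, 321 and 312 CPM at 20 µg/mL, 368, 357 and 346 CPM at 100 µg/mL and 479, 446 and 410.5 CPM at 500 µg/mL. The highest dose was above all of the other 57 libraries, whose upper end was 368 CPM. The rise was 0.45 ± 0.05 on the log2 scale (adjusted p = 2.0e-10). The rise with Sagunja-tang, from 307 and 313 to 359 and 348 CPM, was 0.19 ± 0.06 (adjusted p = 0.044). It was likewise lost without any 1 of the 4 libraries and, with all libraries kept, with RLE size factors or no low-count filter, with adjusted p up to 0.28.

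Of the enzymes that remethylate homocysteine, MTR (ENSG00000116984, chr1:236795281-236903981, plus strand) uses methylfolate and vitamin B12. Vehicle libraries stood at 63.2, 66.1 and 68.0 CPM. The Astragali Radix libraries stood at 53.2, 56.6 and 57.9 CPM at 20 µg/mL, 45.7, 53.0 and 50.7 CPM at 100 µg/mL and 38.0, 30.7 and 45.4 CPM at 500 µg/mL. The highest dose lay below every other library of the study. The fall was −0.55 ± 0.07 on the log2 scale (adjusted p = 2.7e-09). In the other 6 extracts the MTR change between these doses lay between −0.09 and 0.09 (log2), and none passed the test.

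BHMT (ENSG00000145692, chr5:79111779-79132290, plus strand) uses betaine instead and is a low-count member, with 5.06, 5.59 and 5.07 CPM in vehicle. With Astragali Radix it stood at 5.37, 4.16 and 5.71 CPM at 20 µg/mL and at 2.66, 2.89 and 4.07 CPM at 500 µg/mL. The fall was −0.63 ± 0.14 on the log2 scale (adjusted p = 7.4e-05). The highest library of the second group lay just below the lowest of the first. Sagunja-tang stood at 4.44 and 4.87 CPM at 20 µg/mL and at 3.25 and 3.51 CPM at 500 µg/mL, a change of −0.46 ± 0.17 that did not pass the test (adjusted p = 0.069). BHMT shares exon sequence with DMGDH, which oxidizes the product of the BHMT reaction and lies on the opposite strand. DMGDH changed by −0.52 with Astragali Radix (adjusted p = 7.8e-05).

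CTH (ENSG00000116761, chr1:70411218-70439851, plus strand) encodes cystathionine gamma-lyase, which releases cysteine. Vehicle libraries stood at 7.99, 8.17 and 8.70 CPM. With Paeoniae Radix it stood at 7.78 and 7.72 CPM at 20 µg/mL, 9.77 and 8.99 CPM at 100 µg/mL and 18.1 and 15.4 CPM at 500 µg/mL. The rise was 1.11 ± 0.15 on the log2 scale, 2.15-fold (adjusted p = 9.8e-08). With Astragali Radix it stood at 7.59, 8.60 and 8.61 CPM, then 12.1, 10.1 and 11.0 CPM, then 20.5, 14.3 and 15.0 CPM. Each dose group was apart from the next, and the rise between 500 and 20 µg/mL was 1.00 ± 0.12, 2.01-fold (adjusted p = 2.7e-10). The 52 libraries outside these 3 raised groups stayed between 6.35 and 12.1 CPM. Samul-tang, with 1 library a dose, had 7.41, 6.66 and 9.31 CPM of CTH, and 282, 295 and 281 CPM of MAT2A, from 20 to 500 µg/mL.

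**Figure D3:**
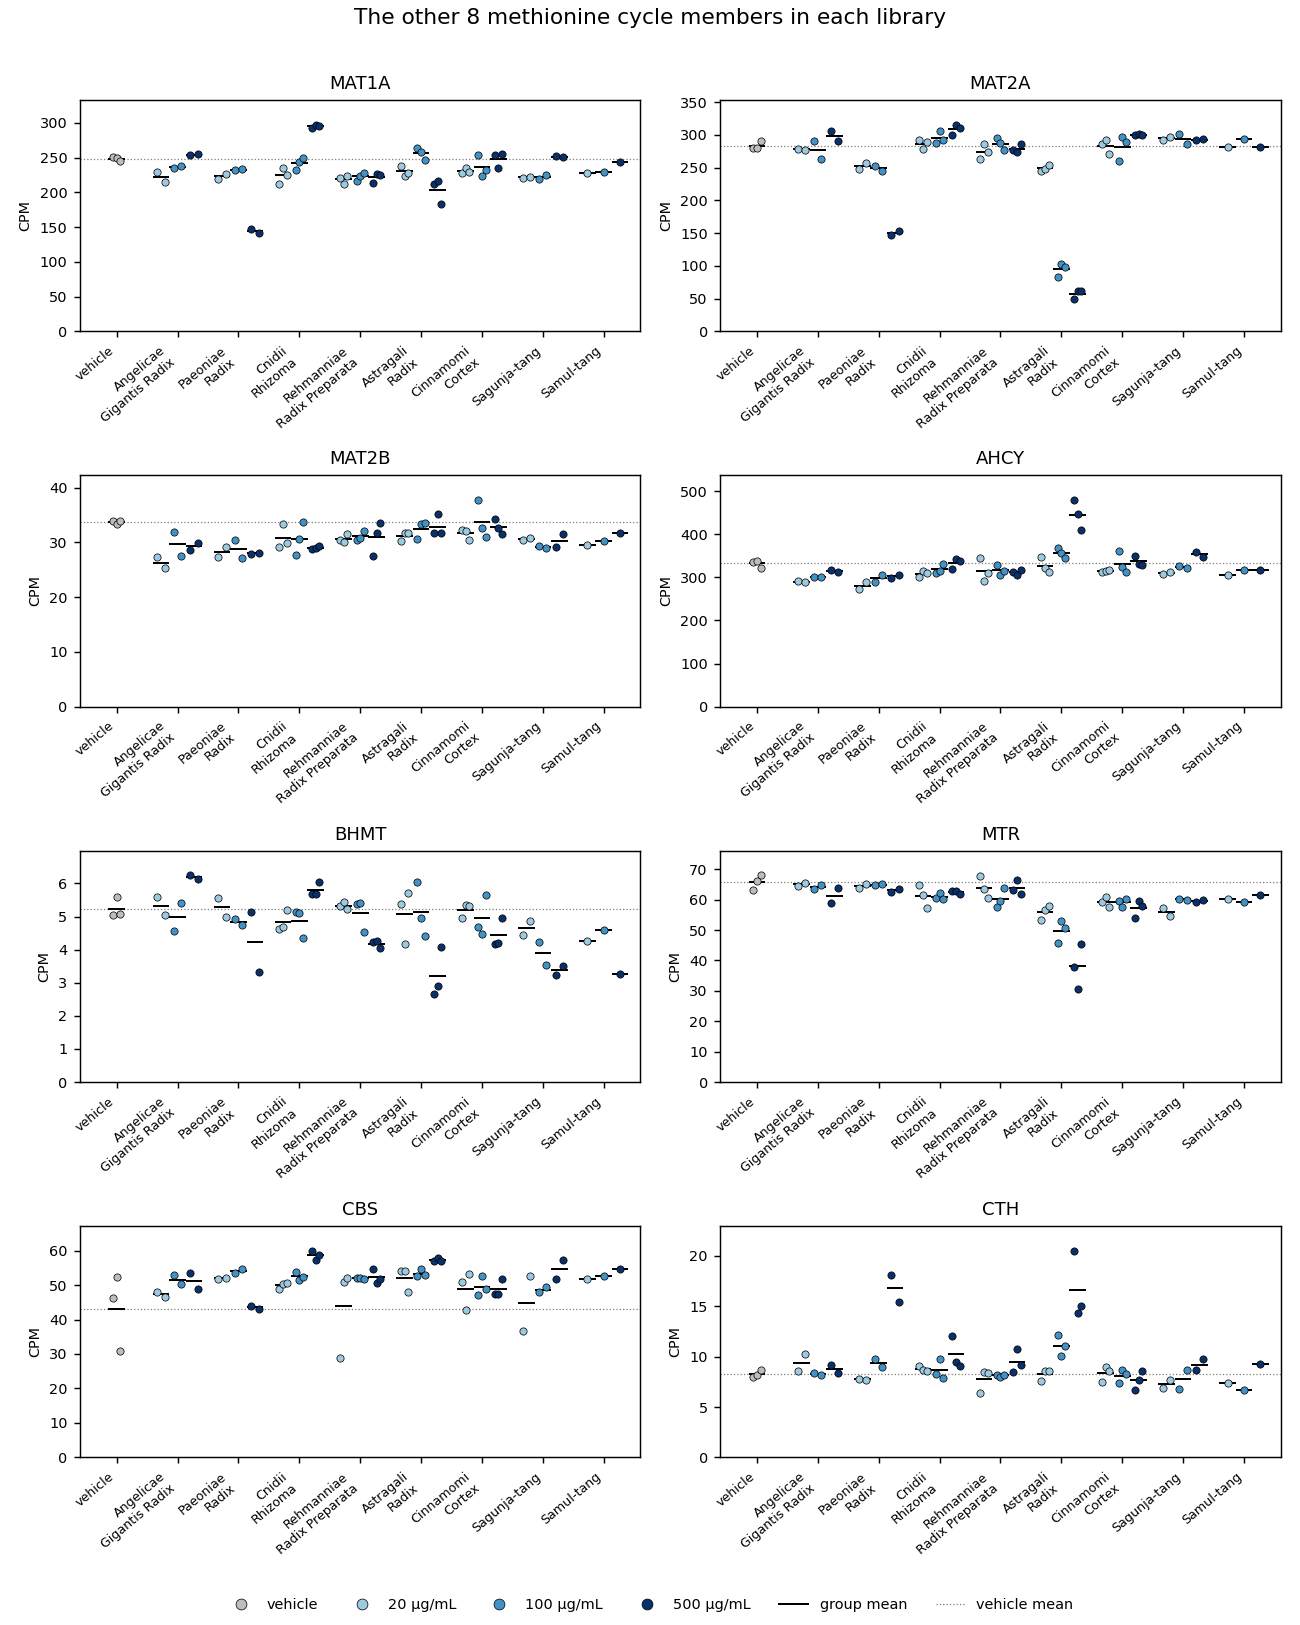
CPM (vertical axes) of the other 8 members in each library, by extract (horizontal axes) and dose (shade), with group means as short lines and the vehicle mean dotted. With Astragali Radix MAT2A stands at 48.9 to 61.8 CPM at 500 µg/mL while CTH and AHCY stand above their vehicle means.

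CBS (ENSG00000160200, chr21:43053191-43076943, minus strand) starts transsulfuration, and its values are uncertain because the annotation holds a near-identical copy, CBSL (ENSG00000274276, chr21:6444869-6468040). The median library gave 0.693% of the summed counts of the pair to CBSL. In 4 of 60 libraries the share was over 5%: 43.0% in a Rehmanniae Radix Preparata library at 20 µg/mL, 37.7% in a vehicle library, 22.8% in a Sagunja-tang library at 20 µg/mL and 15.4% in a Cinnamomi Cortex library at 20 µg/mL. CBS alone stood at 46.2, 52.3 and 30.8 CPM in vehicle, and the sum of both stood at 46.5, 53.0 and 49.4 CPM. The low vehicle library is that with the high CBSL share.

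CBS alone did not pass the test between 500 and 20 µg/mL in any extract. The sum of CBS and CBSL, chosen as an alternative for this reason, passed in 3. It fell with Paeoniae Radix, from 52.1 and 52.5 CPM to 44.4 and 43.3 CPM, by −0.25 ± 0.06 on the log2 scale (adjusted p = 0.0017). It rose with Cnidii Rhizoma, from 49.4, 50.6 and 53.2 CPM to 60.1, 57.7 and 59.2 CPM, by 0.21 ± 0.05 (adjusted p = 0.0023). With Astragali Radix it rose by 0.13 ± 0.05 (adjusted p = 0.018), from 54.4, 54.4 and 48.3 CPM to 57.3, 58.2 and 57.1 CPM. Over the 60 libraries the sum stayed between 43.3 and 60.1 CPM. With Paeoniae Radix, CTH therefore stood 2.15-fold higher in libraries where summed CBS was lower.

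**Figure D4:**
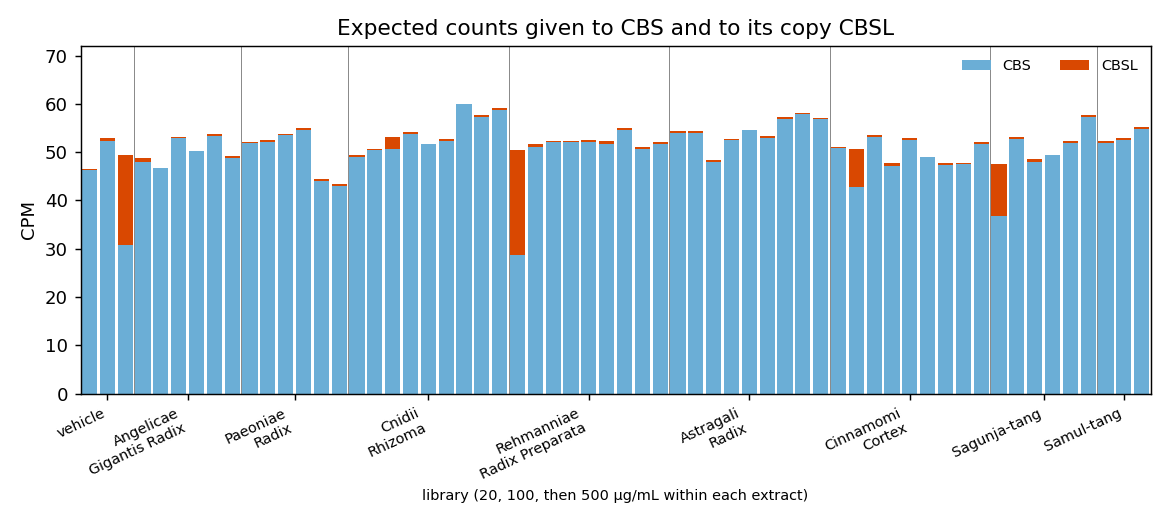
CPM (vertical axis) assigned to CBS and, stacked on it, to CBSL in each of the 60 libraries (horizontal axis, by extract and rising dose). In 4 libraries over 5% of the stack is CBSL, while the height of the whole stack stays between 43.3 and 60.1 CPM.

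Between 100 and 20 µg/mL, Astragali Radix gave 3 calls among the 8 members, MAT2A lower and CTH and MAT1A higher, at a background of 29.1% of all genes. CTH rose by 0.42 ± 0.12 on the log2 scale (adjusted p = 0.0055), and without the 100 µg/mL library at 12.1 CPM its adjusted p was 0.056. The other 6 extracts gave no call in 48 tests by edgeR, and 2 of the 48 had an unadjusted p below 0.05. DESeq2 gave no call either, with no adjusted p for 1 member each in Cnidii Rhizoma and Sagunja-tang. Their backgrounds were 0.18% for Cnidii Rhizoma, 0.0539% for Sagunja-tang, 0.00599% each for Angelicae Gigantis Radix and Rehmanniae Radix Preparata, and 0% each for Paeoniae Radix and Cinnamomi Cortex.

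The dose change of 1 extract was also set against the mean dose change of the other 6, for the 4 extracts with a called member. For Astragali Radix 6 of 8 members differed (background 64.8%), and MAT2A differed by −2.04 ± 0.07 on the log2 scale (adjusted p = 1.2e-27). For Paeoniae Radix 3 members differed (background 22.6%): MAT1A by −0.75 ± 0.06, MAT2A by −0.45 ± 0.08 and CTH by 0.84 ± 0.16. The mean of the other 6 contains Astragali Radix, and without it the MAT2A difference of Paeoniae Radix was −0.81 ± 0.08. For Cnidii Rhizoma MAT1A differed by 0.45 ± 0.05 (adjusted p = 1.3e-08), and 3 members differed in all (background 22.6%), MAT2A and BHMT being the others. MAT2A differed there by 0.55 ± 0.07, and by 0.21 ± 0.07 (adjusted p = 0.039) without Astragali Radix in the mean. The MAT2A change within Cnidii Rhizoma was 0.10 ± 0.06 and did not pass the test (adjusted p = 0.24). For Sagunja-tang 2 members differed (background 8.08%), MAT1A by 0.20 ± 0.06 (adjusted p = 0.040) and MAT2A by 0.41 ± 0.08. Without Astragali Radix in the mean, these 2 differences were 0.16 ± 0.06 (adjusted p = 0.29) and 0.07 ± 0.08 (adjusted p = 0.86).

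Against vehicle, the 7 replicated extracts at 500 µg/mL gave 19 calls among the 8 members, 6 higher and 13 lower. These comparisons share the 3 vehicle libraries. Astragali Radix gave 7 (background 69.8%), with MAT2A lower by −2.31 ± 0.06 on the log2 scale, 4.94-fold, MTR lower by −0.78 ± 0.07 and CTH higher by 1.00 ± 0.12. Paeoniae Radix gave 5 (46.4%), with MAT2A lower by −0.92 ± 0.07, MAT1A by −0.78 ± 0.05, MAT2B by −0.27 ± 0.08 and AHCY by −0.14 ± 0.06, and CTH higher by 1.01 ± 0.13. The AHCY call (adjusted p = 0.050) was lost in 8 of 13 alternatives, with a replicate block (adjusted p = 0.071), RLE size factors (adjusted p = 0.053) or no low-count filter (adjusted p = 0.11) and without either library of the extract or vehicle replicate 1 or 2 among them. Cnidii Rhizoma gave 3 (30.9%): MAT1A and CBS higher and MAT2B lower.

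Each of the other 4 extracts gave 1 call against vehicle, all lower. These were BHMT with Sagunja-tang, by −0.63 ± 0.15 (background 25.6%), MAT2B with Angelicae Gigantis Radix, by −0.20 ± 0.08 (22.3%), MAT1A with Rehmanniae Radix Preparata, by −0.17 ± 0.05 (20%), and MTR with Cinnamomi Cortex, by −0.20 ± 0.07 (14.7%). The MAT2B call had an adjusted p of 0.047 and was lost in 10 of 13 alternatives. The MAT1A call with Rehmanniae Radix Preparata was lost without replicate 1 at 500 µg/mL. The MTR call with Cinnamomi Cortex was lost without replicate 1 or 3 at 500 µg/mL and without vehicle replicate 2 or 3. With the 20 µg/mL groups of the other 6 extracts in place of vehicle, 6 of the 13 lower calls were lost. MAT2B changed by −0.11 ± 0.06 with Paeoniae Radix, by −0.03 ± 0.05 with Cnidii Rhizoma and by −0.06 ± 0.06 with Angelicae Gigantis Radix. AHCY changed by −0.04 ± 0.05 with Paeoniae Radix, MAT1A by −0.02 ± 0.04 with Rehmanniae Radix Preparata and MTR by −0.09 ± 0.05 with Cinnamomi Cortex. The same reference also added higher calls that vehicle did not give. Among them were MAT1A with Angelicae Gigantis Radix (0.18 ± 0.04), Sagunja-tang (0.16 ± 0.04) and Cinnamomi Cortex (0.15 ± 0.04), and MAT2A with Cnidii Rhizoma (0.19 ± 0.05). The share of all genes called with this reference is not given here. The CBS rises with Cnidii Rhizoma (0.44 ± 0.13) and Astragali Radix (0.41 ± 0.13) depend in size on the vehicle library with the high CBSL share. Summed with CBSL they were 0.25 ± 0.05 and 0.21 ± 0.05, with adjusted p of 0.00018 and 0.00030. CBS alone without that library gave 0.25 and 0.21, with adjusted p of 0.13 and 0.12. The sum of CBS and CBSL also passed against vehicle in 2 extracts where CBS alone did not. It was lower with Paeoniae Radix, by −0.18 ± 0.06 (adjusted p = 0.0095), and higher with Sagunja-tang, by 0.15 ± 0.06 (adjusted p = 0.048).

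At 20 µg/mL the mean of the 7 extract groups was already lower than vehicle for 3 members (background 32.3%). MAT2B was lower by −0.17 ± 0.05, MAT1A by −0.15 ± 0.04 and AHCY by −0.12 ± 0.04 on the log2 scale, with adjusted p of 0.0068, 0.0015 and 0.018. No member was higher by edgeR or DESeq2, and the 4 with an unadjusted p below 0.05 were these 3 and MTR. Without vehicle replicate 1 or replicate 2, or with no low-count filter, the AHCY call was lost, with adjusted p up to 0.13.

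8 lists of neighbouring pathways were counted between 500 and 20 µg/mL, with the same test and backgrounds. By direction, 5710 of all 16692 genes rose and 5897 fell with Astragali Radix, 2796 and 2312 with Paeoniae Radix, 1595 and 1474 with Cnidii Rhizoma, and 951 and 790 with Sagunja-tang. The lists hold the folate cycle that supplies MTR, choline and sarcosine oxidation, glycine and serine supply, other small-molecule methyltransferases, regulators of SAM, vitamin B12 handling, methionine salvage with polyamines, and cysteine and sulfide disposal. With Astragali Radix 6 of the 8 SAM regulators fell and 2 rose, with a median of −0.43 (log2) against −0.022 for all genes. YTHDC1, a nuclear reader of N6-methyladenosine in RNA, fell from a mean of 64.5 to 27.3 CPM, by −1.23 ± 0.08 (adjusted p = 2.0e-18). METTL16, the RNA methyltransferase known to act on the MAT2A transcript, was singled out after its values were seen. It fell by −0.59 (adjusted p = 2.0e-13) with Astragali Radix and changed by 0.05 (adjusted p = 0.66) with Paeoniae Radix.

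In the list of cysteine and sulfide disposal more genes rose than fell with Astragali Radix, 8 against 3 of 12, with a median of 0.63. The list includes CBSL and the glutathione synthesis genes GCLC, GCLM and GSS, and these last 3 were among those that rose. The 3 that fell were CSAD, given below, CDO1 (−1.21) and SUOX (−0.65), the last 2 named after their values were seen. SQOR, the mitochondrial sulfide oxidase, rose from a mean of 17.6 to 55.2 CPM, by 1.65 ± 0.07 (adjusted p = 1.1e-24). It also rose with Paeoniae Radix (0.68), Sagunja-tang (0.36) and Cnidii Rhizoma (0.27). With Paeoniae Radix 4 rose and 3 fell, and CSAD, an enzyme of taurine synthesis, fell by −1.12 ± 0.20. With Astragali Radix CSAD fell by −2.40 (adjusted p = 1.5e-14), at a level below the 5 CPM asked of named genes, so it is named here after its values were seen. GCLM, the regulatory subunit of the first enzyme of glutathione synthesis, rose with Cnidii Rhizoma from 30.8 to 103 CPM, by 1.74 ± 0.07 (adjusted p = 3.1e-24), and the catalytic subunit GCLC rose by 0.98 ± 0.04. GCLC also rose with Paeoniae Radix (0.94), Astragali Radix (0.74), Sagunja-tang (0.59), Rehmanniae Radix Preparata (0.30) and Angelicae Gigantis Radix (0.21). GCLM also rose with Sagunja-tang by 1.18 ± 0.08, with Rehmanniae Radix Preparata by 0.69 ± 0.07 and with Angelicae Gigantis Radix by 0.44 ± 0.08. With Paeoniae Radix and Astragali Radix it rose by 0.60 in each, and with Cinnamomi Cortex the change of 0.26 had an adjusted p of 0.050. The Angelicae Gigantis Radix call was lost without replicate 2 at 20 µg/mL or replicate 3 at 500 µg/mL.

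In choline, betaine and sarcosine oxidation 6 of 10 genes fell with Paeoniae Radix and 6 of 10 with Astragali Radix, with medians of −0.29 and −0.34, while 1 and 2 rose. DMGDH, dimethylglycine dehydrogenase, fell with Paeoniae Radix from 5.36 to 2.39 CPM, by −1.16 ± 0.16. ETNPPL, which breaks down phosphoethanolamine, fell with Astragali Radix by −1.51 ± 0.11 and with Paeoniae Radix by −0.31 (adjusted p = 0.038). BHMT2, a relative of BHMT, rose with Cnidii Rhizoma from 13.8 to 27.9 CPM, by 1.02 ± 0.07, where BHMT itself changed by 0.26 ± 0.13 (adjusted p = 0.15). BHMT2 also rose with Sagunja-tang (0.66), Astragali Radix (0.45), Angelicae Gigantis Radix (0.41), Rehmanniae Radix Preparata (0.37) and Paeoniae Radix (0.28). The Angelicae Gigantis Radix call was lost without any 1 of its 4 libraries, and the Rehmanniae Radix Preparata call without replicate 1 at 500 µg/mL.

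In the folate cycle 9 of 17 genes rose and 1 fell with Cnidii Rhizoma, 7 rose and 1 fell with Sagunja-tang, 8 rose and 6 fell with Astragali Radix, and 6 rose and 5 fell with Paeoniae Radix. FTCD, which feeds histidine carbon into the folate pool, fell with Paeoniae Radix from 35.2 to 15.4 CPM, by −1.18 ± 0.11. It also fell with Astragali Radix (−0.89) and Rehmanniae Radix Preparata (−0.31). ALDH1L2, a mitochondrial formyltetrahydrofolate dehydrogenase, rose with Sagunja-tang by 0.89 ± 0.16 and with Cnidii Rhizoma by 0.68, and fell with Astragali Radix by −0.33. MTHFD1L, a mitochondrial formate-producing enzyme, rose with Cnidii Rhizoma (0.51), Astragali Radix (0.49), Sagunja-tang (0.44), Angelicae Gigantis Radix (0.41) and Paeoniae Radix (0.25). Its Angelicae Gigantis Radix call was lost without replicate 3 at 20 µg/mL or 2 at 500 µg/mL. Of 11 tested genes of glycine and serine supply, 7 fell and 2 rose with Astragali Radix, with a median of −0.25. AGXT, the peroxisomal enzyme that makes glycine from glyoxylate, fell in 6 of the 7 extracts. The change was −1.02 with Astragali Radix, −0.85 with Paeoniae Radix, −0.80 with Sagunja-tang, −0.40 with Cnidii Rhizoma and −0.32 with both Rehmanniae Radix Preparata and Cinnamomi Cortex. The AGXT call was lost without replicate 1 at 20 µg/mL or 2 at 500 µg/mL of Rehmanniae Radix Preparata, and without replicate 2 or 3 at 20 µg/mL or 1 or 2 at 500 µg/mL of Cinnamomi Cortex.

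In methionine salvage and polyamines 7 of 12 genes rose and 2 fell with Astragali Radix, 6 rose and 0 fell with Cnidii Rhizoma, and 4 rose and 0 fell with Sagunja-tang. ODC1, the first enzyme of polyamine synthesis, rose with Cnidii Rhizoma (0.59), Sagunja-tang (0.49) and Astragali Radix (0.18). It also rose with Cinnamomi Cortex from 296 to 359 CPM, by 0.28 ± 0.07 (adjusted p = 0.024), a call lost without replicate 2 or 3 at 20 µg/mL or 1 at 500 µg/mL. In vitamin B12 handling 4 genes rose and 4 fell of 9 with Astragali Radix. MMAB fell with Cnidii Rhizoma by −0.36 (adjusted p = 1.4e-06), with Sagunja-tang by −0.30 (adjusted p = 0.0013) and with Astragali Radix by −0.13 (adjusted p = 0.022). It was named above for its likeness to GNMT over these libraries, so nothing is read from its order. Of 6 tested small-molecule methyltransferases 3 rose and 2 fell with Astragali Radix.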

How the data were processed

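Total RNA of HepG2 cells was sequenced as paired 100-base reads from directional libraries, per the labels' protocols. The deposited table holds RSEM expected counts per gene made by the authors, of which 8.21% are not whole numbers, and the submitters' processing notes name FastQC 0.11.9, Trim Galore 0.6.5, STAR 2.7.3a, RSEM 1.3.3 and GRCh38. The strand setting of counting and the annotation release are not given in the sources used here. Of 270 sample columns, 210 matched none of these samples and were not used.

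Counts were rounded and fitted over the 25 groups with edgeR 4.0.16 (R 4.3.3, limma 3.58.1): filterByExpr left 16692 genes, with TMM scaling and the quasi-likelihood test with 35 residual degrees of freedom. P-values were adjusted over all tested genes within a comparison (Benjamini-Hochberg) and called below 0.05. The code was tested on simulated data. CPM are TMM-scaled, and the log2 CPM used for correlations add a prior count of 2. DESeq2 1.42.0, other scaling and filters, a replicate block and leaving out each library were alternatives. The members and lists were chosen with earlier results of these data known. Named genes were all 9 members, the 5 genes most like GNMT, and per extract the 3 called list genes with the strongest change averaging 5 CPM or more at the dose with the higher level. Replicate pairs differed by more than sampling noise in each of 48 pairs. Gene coordinates are those of GENCODE 29, and those of the promoter windows are of RefSeq. Gene names came from a gene symbol reference, with GENCODE 29 names where it held none. Counting precision is limited by depth: the GNMT counts of a library ran from 35 to 170.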

Additional observations from a re-analysis of the deposited data

Results flagged for a closer look

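In 11 cases the dose change of a member (500 against 20 µg/mL, log2) was called within an extract and also differed from the mean dose change of the other 6 replicated extracts, by edgeR's quasi-likelihood test of that difference over all genes. No explanation was weighed for these differences.

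With Astragali Radix, MAT2A differed by −2.04 ± 0.07 (standard error, adjusted p = 1.2e-27), MTR by −0.54 ± 0.08 (adjusted p = 3.9e-08), BHMT by −0.48 ± 0.15 (adjusted p = 0.0046) and MAT1A by −0.22 ± 0.05 (adjusted p = 0.00032). CTH differed by 0.72 ± 0.13 (adjusted p = 4.6e-06) and AHCY by 0.35 ± 0.06 (adjusted p = 7.0e-07). Each of these 6 held in all 14 alternatives run for it.

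With Paeoniae Radix, MAT1A differed by −0.75 ± 0.06 (adjusted p = 2.4e-12), MAT2A by −0.45 ± 0.08 (adjusted p = 2.6e-05) and CTH by 0.84 ± 0.16 (adjusted p = 8.9e-05). With Cnidii Rhizoma, MAT1A differed by 0.45 ± 0.05 (adjusted p = 1.3e-08). These 4 also held in all their alternatives.

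With Sagunja-tang, MAT1A differed by 0.20 ± 0.06 (adjusted p = 0.040), and this call was lost in 7 of 13 alternatives, including without any 1 of its 4 libraries.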

How the results depend on the processing

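Over the 7 replicated extracts the 8 tested members gave 6 calls higher and 6 lower between 500 and 20 µg/mL. Leaving out 1 library gave 4 to 7 higher and 6 to 8 lower, and with CBS and CBSL summed there were 8 and 7. Between 100 and 20 µg/mL the 2 higher calls became 1 with no low-count filter or at an adjusted p below 0.01. The 1 lower call became 2 with DESeq2, with RLE size factors or with a filter of at least 1 CPM in 3 libraries. Leaving out 1 library gave 0 to 3 higher and 1 to 2 lower there. Against vehicle the 6 higher calls became 10 with no low-count filter and 16 when the reference was the 20 µg/mL groups of the 6 remaining extracts. The 13 lower became 8 at an adjusted p below 0.01 and 7 with that reference. Leaving out 1 library gave 4 to 9 and 10 to 15. For the mean of the 20 µg/mL groups against vehicle, 0 higher became 1 with no low-count filter, and leaving out 1 library gave 0 to 1 higher and 2 to 3 lower. The cause was not tested. No called member changed direction. Leaving out a library turned the sign of some untested GNMT changes. Between 500 and 20 µg/mL these went from −0.21 to 0.02 for Angelicae Gigantis Radix and from −0.09 to 0.08 for Paeoniae Radix. Between 100 and 20 µg/mL the change went from −0.17 to 0.04 for Rehmanniae Radix Preparata. For Cinnamomi Cortex it was −0.03 between those doses and reached 0.03 among its alternatives.

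The replicate numbers did not pair the libraries: deviations of same-numbered libraries had a mean correlation of 0.016 over 18 pairs. With the number as a replicate block there were 6 higher and 6 lower calls between 500 and 20 µg/mL, 3 and 1 between 100 and 20 µg/mL, 6 and 12 against vehicle, and 0 and 3 for the mean of the 20 µg/mL groups. Depth limits GNMT and BHMT most.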
